A study of Homo sapiens with 6 samples.

Results

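VIM, ACTA2, FAP and TGM2 encode proteins that are widely read as marks of mesenchymal cells or of epithelial cells with mesenchymal traits. They were chosen by symbol, and all 4 were among the 753 genes of the deposited table. The study profiled RNA of AsPC-1, an established human pancreatic cancer cell line, in 3 control libraries and 3 libraries made after knockdown. Both groups were AsPC-1 cells infected with a lentivirus. It was a control lentivirus in the group labelled TMPRSS4 NC and a shTMPRSS4 lentivirus in the group labelled TMPRSS4-Knockdown, TMPRSS4 being a membrane-anchored serine protease. The labels give neither the hairpin sequence nor the number of hairpins or clones. TMPRSS4 itself was not among the 753 genes by symbol, and why it is absent was not tested. The knockdown was therefore not checked and its name follows the labels alone.

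In the authors' deposited table no row moved by less than 1 on the log2 scale, up or down, and no row had a false discovery rate (FDR) above 0.049. The rows were therefore selected on the contrast of knockdown with control, and each difference between the groups below describes these libraries and is no independent evidence. By the direction in the authors' deposited table, higher expression in the knockdown was listed for 555 genes (73.7%) and lower for 198 (26.3%). The depth recovered from counts and FPKM ran from 30200000 to 57200000 reads in the controls and from 46800000 to 53300000 reads after knockdown. Control replicate 3 was the single library with the code L3 in its label, and all others carried L4. The other markers of the AsPC-1 ductal phenotype were mostly not analysed here. Of 15 such genes CEACAM6 was listed, at 11.5 to 13.2 FPKM in the controls (fragments per kilobase of gene, scaled to library depth) and 3.71 to 3.94 FPKM in the knockdown libraries.

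Vimentin, the product of VIM, is the intermediate filament protein of mesenchymal cells, and carcinoma cells often gain it when they lose epithelial organisation. ACTA2 encodes the actin isoform of smooth muscle, which in pancreatic tumours marks contractile fibroblasts derived from stellate cells. FAP is a serine protease on the surface of activated fibroblasts that cleaves after proline and is related to DPP4. TGM2 encodes transglutaminase 2, an enzyme that binds GTP inside the cell and cross-links glutamine to lysine residues of matrix proteins such as fibronectin outside it. In carcinoma cells TGM2 is known as a companion of the mesenchymal state and as a gene induced by retinoic acid.

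The sequences before the transcription starts of VIM and ACTA2 are shown because both genes were higher in the knockdown libraries and because the ACTA2 start is a textbook example of control by serum response factor, which binds the CArG box. RefSeq windows (GRCh38.p14) were matched by symbol for 2 of the 4 genes. Each line gives the 250 bases before a start, 5′ to 3′ on the strand of the gene. Capitals mark matches to the CArG box with 1 C or G among its central bases and to TATANAA.
VIM, chr10:17227991-17228240, plus strand: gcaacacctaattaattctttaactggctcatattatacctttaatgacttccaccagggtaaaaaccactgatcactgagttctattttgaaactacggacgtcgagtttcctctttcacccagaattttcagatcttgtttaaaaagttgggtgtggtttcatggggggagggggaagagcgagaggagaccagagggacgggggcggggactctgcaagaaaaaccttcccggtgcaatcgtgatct
ACTA2 upstream start, chr10:88991338-88991587, minus strand: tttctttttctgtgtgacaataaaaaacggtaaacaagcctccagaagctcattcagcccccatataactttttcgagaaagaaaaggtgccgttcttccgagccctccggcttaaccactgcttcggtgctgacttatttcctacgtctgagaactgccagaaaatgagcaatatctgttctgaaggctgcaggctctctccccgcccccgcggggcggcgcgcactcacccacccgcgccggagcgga
ACTA2 downstream start, chr10:88952774-88953023, minus strand: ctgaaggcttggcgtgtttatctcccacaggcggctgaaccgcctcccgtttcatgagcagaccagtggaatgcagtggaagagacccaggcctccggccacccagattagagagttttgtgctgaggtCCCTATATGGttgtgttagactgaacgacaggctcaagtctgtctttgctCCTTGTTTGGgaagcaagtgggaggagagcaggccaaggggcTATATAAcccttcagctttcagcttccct

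Both strands of each window were searched for the CArG box, TGANTCA (the AP-1 site), CACCTG (an E-box bound by SNAI and ZEB repressors), TATANAA and GGGCGG (the SP1 site). These motifs have no letters in common at the matches found. In the downstream ACTA2 window the CArG box matched at positions -121 to -112 and -71 to -62, counted back from -1 at the base before the start, each with 1 substitution. The TATA element followed at -29 to -23. A CArG box with 1 substitution was present in 5.97% of 34943 RefSeq windows of the same length, the TATA element in 8.44%, and the box with no substitution, which none of the 3 windows held, in 1.16%. The VIM window and the upstream ACTA2 window held neither the substituted CArG box nor the TATA element. The SP1 site occurred at 1 position of the VIM window, at -46 to -41, and at 2 positions of the upstream ACTA2 window, against 42.5% of all windows with a match. The AP-1 site (6.59% of all windows) and the E-box (17.5%) matched none of the 3 windows. These matches describe letters, and the libraries hold no measure of which start was used.

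The cytoskeletal genes were higher in the knockdown libraries. VIM (ENSG00000026025, chromosome 10, 17228259 to 17237593 in GENCODE release 29 on GRCh38, plus strand) had 3.34, 3.69 and 2.48 FPKM in control replicates 1, 2 and 3. In knockdown replicates 1, 2 and 3 it had 8.38, 7.56 and 8.72 FPKM. The groups did not overlap, and the lowest knockdown library was 2.05-fold above the highest control. The reads behind these levels were 258, 185 and 101 in the controls, against 603, 514 and 550 after knockdown. Means were 3.17 ± 0.623 and 8.22 ± 0.596 FPKM (SD, n = 3 per group). The log2 fold change was 1.37 ± 0.18 (SE), with an adjusted p of 1.52e-05 by edgeR's quasi-likelihood test with Benjamini-Hochberg adjustment.

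ACTA2 (ENSG00000107796, chromosome 10, 88935074 to 88991339, minus strand) had 3.74, 4.80 and 4.08 FPKM in control replicates 1, 2 and 3 and 8.92, 11.22 and 10.06 FPKM in knockdown replicates 1, 2 and 3. Each knockdown library was above each control, the nearest pair by 1.86-fold. Read counts were 212, 177 and 122 in the controls, against 471, 560 and 466 after knockdown. On the log2 scale ACTA2 rose by 1.26 ± 0.14 (SE), and the edgeR adjusted p was 1.85e-05. Replicate 2 was the highest ACTA2 library of each group. In VIM replicate 2 was the highest control and the lowest knockdown library, so the libraries of a group were ordered differently for these genes.

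**Figure D1:**
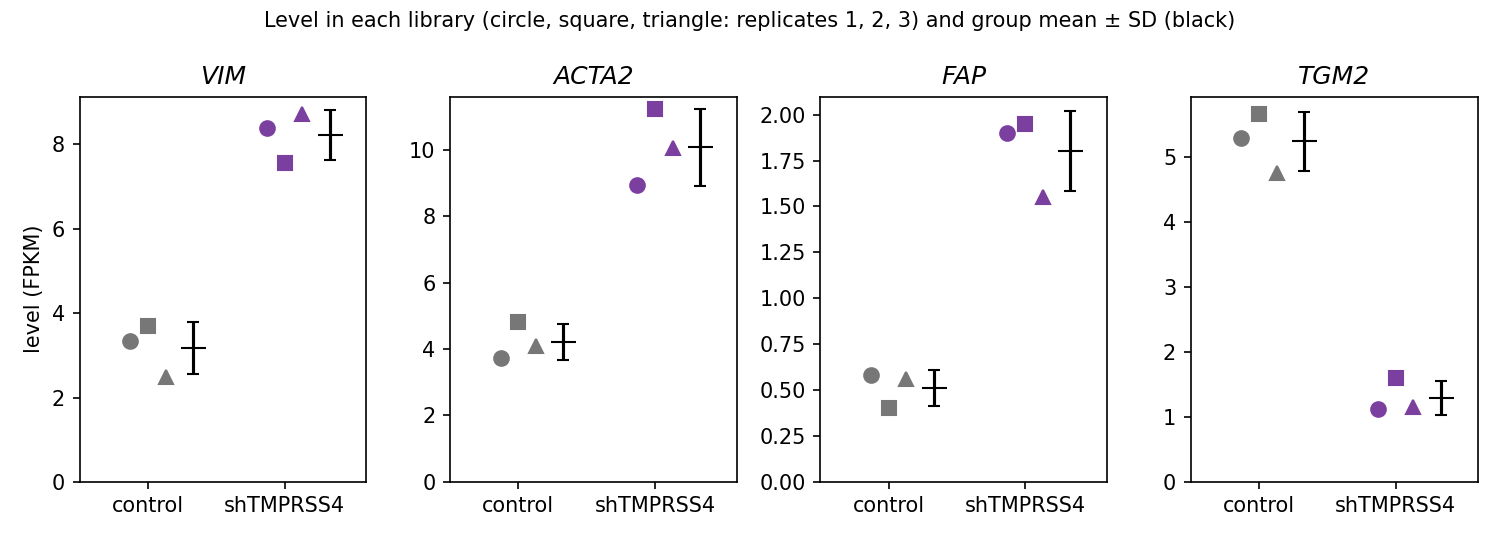
Level in FPKM (vertical axis, from 0, a separate scale for each gene) of VIM, ACTA2, FAP and TGM2 in 3 control and 3 knockdown libraries, with group means ± SD in black. The knockdown libraries lie above all controls for VIM, ACTA2 and FAP, and below all controls for TGM2, where they reach at most 1.6 FPKM against at least 4.76 FPKM.

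FAP, the surface protease, was the member with the fewest reads. FAP (ENSG00000078098, chromosome 2, 162170684 to 162245151, minus strand) had 0.58, 0.40 and 0.56 FPKM in control replicates 1, 2 and 3, from 71, 32 and 36 reads. The knockdown libraries had 1.90, 1.95 and 1.55 FPKM, from 216, 210 and 154 reads. All knockdown libraries were above all controls, the nearest pair by 2.67-fold. FAP rose by 1.80 ± 0.20 (SE) on the log2 scale (edgeR adjusted p = 2.6e-05). Its controls had a coefficient of variation of 19.2%, while counting reads alone would give 15.6%.

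TGM2, the cross-linking enzyme, went the other way. TGM2 (ENSG00000198959, chromosome 20, 38127387 to 38166578, minus strand) had 5.30, 5.67 and 4.76 FPKM in control replicates 1, 2 and 3, from 685, 477 and 325 reads. In knockdown replicates 1, 2 and 3 it had 1.13, 1.6 and 1.15 FPKM, from 136, 182 and 122 reads. The lowest control was 2.97-fold above the highest knockdown library, which was replicate 2. TGM2 fell by 2.02 ± 0.18 (SE) on the log2 scale, with an edgeR adjusted p of 8.93e-07. Its coefficient of variation was 8.73% in the controls, against 20.5% after knockdown, where counting reads alone would give 4.70% and 8.38%.

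All 4 genes passed the edgeR test, and so did 699 of the 705 listed genes tested (99.1%), as the selection of the rows implies. In the direction of VIM, ACTA2 and FAP 73.3% of the genes tested passed, and in that of TGM2 25.8%. Libraries of the groups did not overlap for 72.8% of the listed genes on the higher side and for 25.0% on the lower side. Nothing is read from 3 members against 1 beside these shares. An exact two-sided permutation test of the FPKM values gave p = 0.1 for each of the 4 genes, the smallest value that 3 against 3 libraries allow.

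Among listed genes these were ordinary in size on the higher side and large on the lower side. Ranked by size in the authors' deposited table, FAP stood at 232, VIM at 358 and ACTA2 at 401 of the 555 higher genes, and TGM2 at 38 of the 198 lower genes. By FDR in the authors' deposited table TGM2 stood at 135, VIM at 234, ACTA2 at 262 and FAP at 274 of all 753 rows. The median edgeR log2 fold change of the genes tested was 1.54 on the higher side, above VIM and ACTA2 and below FAP. On the lower side it was -1.33, against -2.02 for TGM2.

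**Figure D2:**
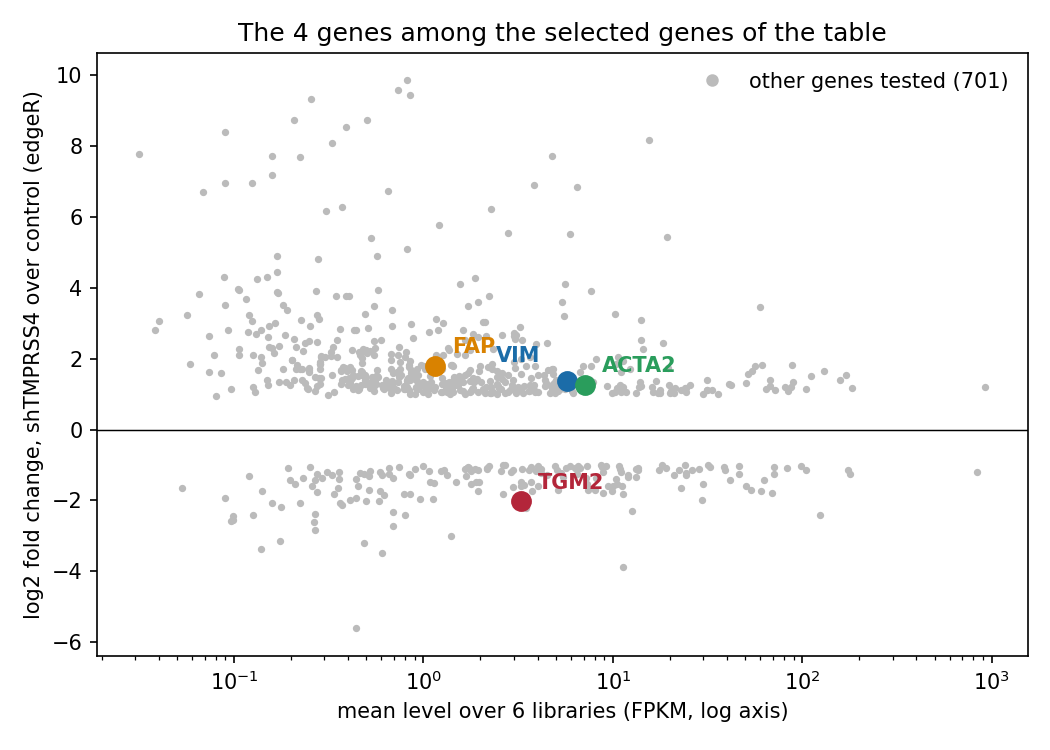
Log2 fold change by edgeR, knockdown over control (vertical axis), against the mean level over 6 libraries in FPKM (horizontal, log axis) for the 705 listed genes tested, in grey, with the 4 genes in colour. No gene lies near 0 because the table holds selected genes. FAP sits above the median rise of 1.54, VIM and ACTA2 below it, and TGM2 below the median fall of -1.33.

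The size of the VIM and ACTA2 rises depends on how the libraries are scaled. Scaling over the selected rows themselves, which moves the median log2 fold change of all genes tested by -1.21 (TMM) or -1.17 (DESeq2 size factors), left VIM at 0.16 or 0.20 and ACTA2 at 0.05 or 0.09, and neither passed (edgeR adjusted p = 0.459 or 0.34 for VIM, 0.822 or 0.7 for ACTA2). FAP stayed higher, by 0.59 or 0.63, and passed narrowly (edgeR adjusted p = 0.0464 or 0.0318). The shift was alike for all these genes. FAP staying higher thus restates its larger log2 fold change with the recovered depth (1.80, against 1.37 for VIM and 1.26 for ACTA2). TGM2 stayed lower, at -3.23 or -3.19, and passed, but a downward shift can only move a lower gene further from 0. With the recovered depth both VIM and ACTA2 passed under each left-out library. Within the libraries coded L4 alone, which leaves out control replicate 3, the log2 fold changes were 1.23 for VIM, 1.24 for ACTA2, 1.85 for FAP and -2.08 for TGM2, and each passed. The plot of fold changes by setting gives all values.

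**Figure D3:**
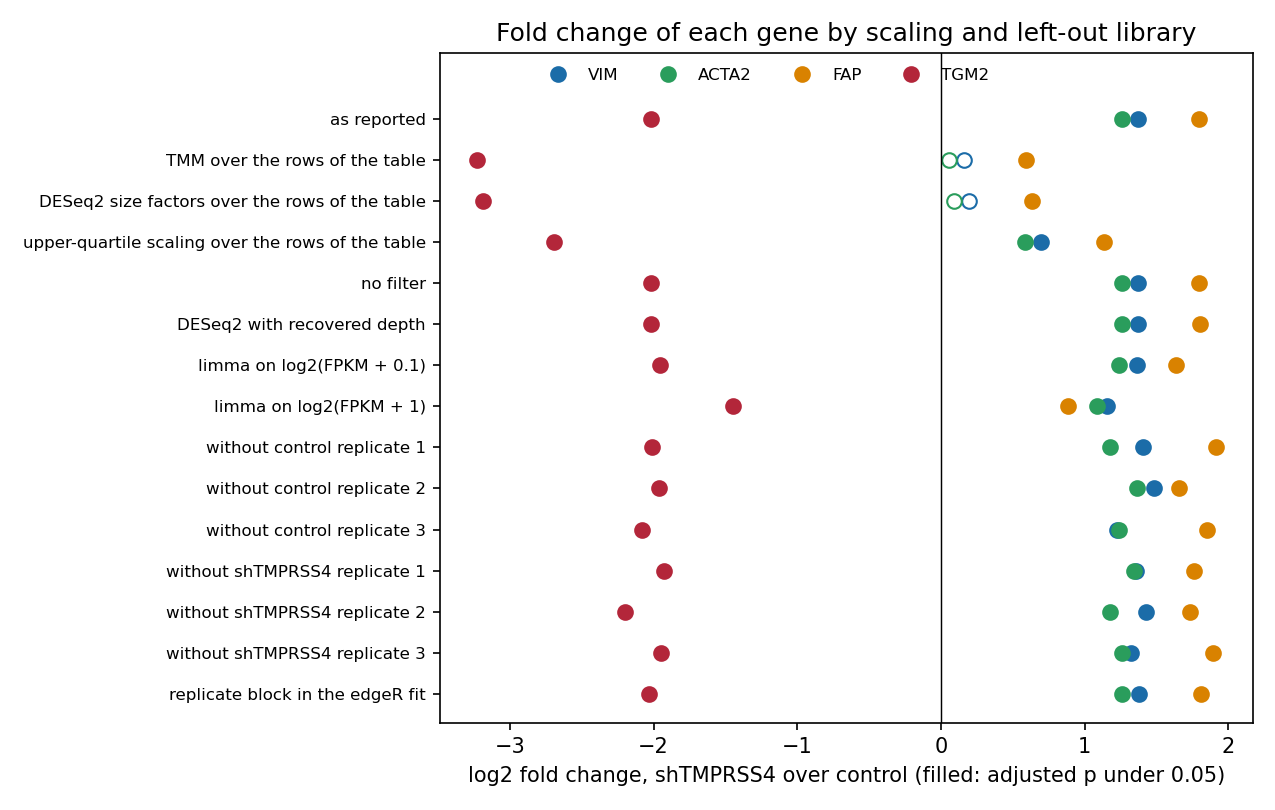
Log2 fold change of VIM, ACTA2, FAP and TGM2, knockdown over control (horizontal axis), under each scaling, tool and left-out library (rows). Filled points passed at an adjusted p under 0.05. VIM and ACTA2 are open and near 0 under TMM and DESeq2 size factors over the selected rows, while TGM2 stays between -3.23 and -1.45 in every row and FAP between 0.59 and 1.91.

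The order of the levels differed between the groups. FPKM is per length of gene, and the length implied by count, FPKM and depth was 1349 bases for VIM, 990 for ACTA2, 2134 for FAP and 2259 for TGM2. The longest annotated transcripts are longer in GENCODE release 29, with 2666, 1349, 2780 and 5070 bases, so an order across genes depends on the lengths the authors used. In the controls TGM2 stood highest, followed by ACTA2, VIM and FAP. The control ranges of TGM2 (4.76 to 5.67 FPKM) and ACTA2 (3.74 to 4.80 FPKM) overlapped, although TGM2 was above ACTA2 within each of the 3 libraries. ACTA2 (at least 3.74 FPKM) and VIM (at most 3.69 FPKM) were barely apart in the controls, and FAP was below both. In the knockdown libraries ACTA2 stood highest, followed by VIM, FAP and TGM2. There ACTA2 (at least 8.92 FPKM) and VIM (at most 8.72 FPKM) were again barely apart, while FAP (1.55 to 1.95 FPKM) and TGM2 (1.13 to 1.6 FPKM) overlapped, with FAP above TGM2 within each library.

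Ratios of one gene to another within a library do not depend on depth or scaling, and 6 pairs were compared. TGM2 over FAP was 9.14, 14.2 and 8.5 by FPKM in control replicates 1, 2 and 3 and 0.595, 0.821 and 0.742 in the knockdown libraries. TGM2 thus passed from well above FAP in all controls to below it in all knockdown libraries. The log2 ratio of counts differed by -3.83 ± 0.26 (SE). TGM2 over VIM was 1.59, 1.54 and 1.92 in control replicates 1, 2 and 3 and 0.135, 0.212 and 0.132 in the knockdown libraries, a log2 difference of -3.42 ± 0.24. TGM2 over ACTA2 was 1.42, 1.18 and 1.17 in control replicates 1, 2 and 3 and 0.127, 0.143 and 0.114 in the knockdown libraries, a log2 difference of -3.29 ± 0.13. For each of these 3 ratios the groups did not overlap, and the exact two-sided permutation test gave p = 0.1, the smallest it allows (0.2 after Benjamini-Hochberg adjustment over 6 pairs). The levels fixed that outcome in advance, since TGM2 lay below all controls and the other genes above them. It is therefore no further evidence.

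The 3 higher genes could not be separated from each other in this way. ACTA2 over VIM was 1.12, 1.30 and 1.65 in control replicates 1, 2 and 3 and 1.06, 1.48 and 1.15 in the knockdown libraries. Its log2 difference was -0.13 ± 0.22 (exact permutation p = 0.6, adjusted 0.6), and without control replicate 3 it turned to 0.016. FAP over VIM differed by 0.41 ± 0.34 (exact permutation p = 0.3, adjusted 0.36) and FAP over ACTA2 by 0.55 ± 0.30 (exact permutation p = 0.2, adjusted 0.3). The groups overlapped in all 3 of these ratios, and with 3 libraries a group such values do not show that the genes changed alike. Control replicate 2, with 32 FAP reads, had the lowest FAP share against both genes.

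**Figure D4:**
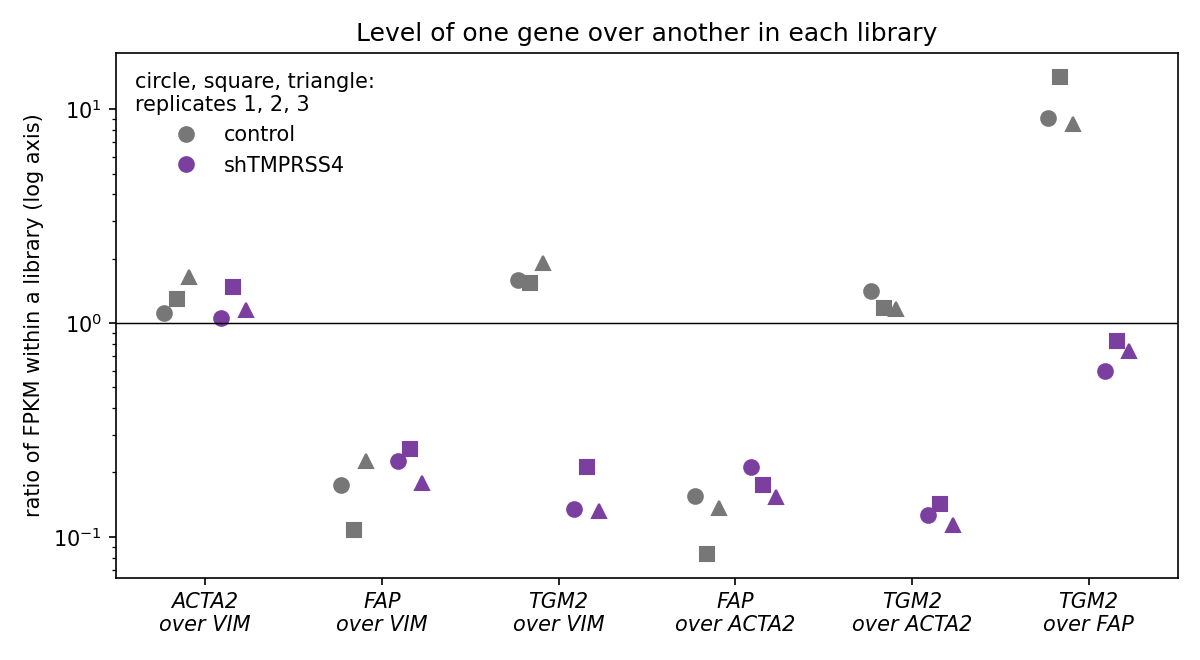
Ratio of the FPKM of one gene to that of another within each library (vertical log axis) for 6 pairs, controls in grey and knockdown in purple, replicates by symbol. The groups are apart in the 3 ratios with TGM2, which fall from above 1 to below 1, and overlap in the 3 ratios among VIM, ACTA2 and FAP.

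For each member the listed genes with the nearest pattern were found by the root mean square distance of log2(FPKM + 0.1), centred on each gene's mean over the 6 libraries, among the 385 listed genes whose 6 libraries averaged 1 FPKM or more. The libraries and the contrast are shared, so a small distance is expected among selected genes and only describes them. Nearest to VIM were SYNGR4, a synaptogyrin, at 0.0957, FAM174B at 0.103 and CCDC106 at 0.112, against a median distance of 0.4. Each was lowest in control replicate 3, as VIM was. Nearest to ACTA2 were RNASE4, a secreted ribonuclease, at 0.0505, the growth factor midkine (MDK) at 0.055 and the protocadherin PCDHB13 at 0.0909 (median 0.423). MDK had 36.2, 45.5 and 40.8 FPKM in control replicates 1, 2 and 3 and 90.2, 103.5 and 90.8 FPKM in the knockdown libraries, a higher level with the peak in replicate 2 of each group, as in ACTA2. RNASE4 and FAM174B turned to the lower side with TMM over the selected rows (log2 fold changes of -0.019 and -0.017).

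Nearest to FAP were IFI16, a sensor of DNA, at 0.106, the ephrin receptor EPHA4 at 0.12 and SPTLC3, a subunit of serine palmitoyltransferase, at 0.12 (median 0.424). IFI16 had 1.32, 1.03 and 1.5 FPKM in control replicates 1, 2 and 3, lowest in replicate 2 as FAP was, and 4.22, 3.84 and 3.65 FPKM in the knockdown libraries. Nearest to TGM2 were TMEM216, a membrane protein of the base of cilia, at 0.121, GRAMD1B, a sterol carrier, at 0.172 and the annexin ANXA10 at 0.192 (median 1.56). TMEM216 had 15.45, 16.35 and 13.71 FPKM in control replicates 1, 2 and 3 and 3.98, 5.93 and 3.77 FPKM in the knockdown libraries, with the highest knockdown value in replicate 2, as in TGM2. The distances between members were 0.221 for VIM and ACTA2, 0.345 for VIM and FAP and 0.340 for ACTA2 and FAP. TGM2 was 1.6 to 1.81 away from the other members.

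The wider mesenchymal programme was covered in part. Of 30 genes of epithelial-mesenchymal transition, the members included, 6 were listed, 3 higher and 3 lower. All 6 passed, as did 99.1% of all genes tested, 73.3% as higher and 25.8% as lower. Their median edgeR log2 fold change was 0.03, against 1.29 over all genes tested. This split and this median depend on which genes the list holds. Matrix and mesenchymal genes outside it went both ways. By edgeR log2 fold change LGALS1 (1.40), VCAN (2.68) and COL4A2 (1.70) were higher, and TIMP2 (-1.15) and COL4A1 (-2.56) were lower. COL4A1 and VCAN were near the floor, at means over 6 libraries of 0.0983 and 0.187 FPKM. COL4A2, the partner chain of COL4A1, stood at 4.8 FPKM and moved the other way. These genes are examples, and the matrix genes on each side were not counted. TNC, which encodes the matrix protein tenascin C, had 13.7, 15.4 and 13.3 FPKM in control replicates 1, 2 and 3 and 4.74, 4.67 and 4.59 FPKM in the knockdown libraries. TNC fell by 1.6 ± 0.07 (SE) on the log2 scale (edgeR adjusted p = 1.1e-08). AXL, a receptor tyrosine kinase, had 0.43, 0.51 and 0.35 FPKM in the controls, against 0.23, 0.16 and 0.18 FPKM after knockdown and fell by 1.20 ± 0.22 (edgeR adjusted p = 0.00175). The summed level of all 6 genes was 25.5 to 30.5 FPKM in the controls, against 25.3 to 27.2 FPKM after knockdown. The sum thus overlapped while its genes moved apart. Without VIM, ACTA2, FAP and TGM2, the sum of TNC and AXL was 13.7 to 15.9 FPKM in the controls, against 4.77 to 4.97 FPKM after knockdown. The other 24 genes, among them CDH2, FN1, SNAI1, ZEB1 and TAGLN, were not analysed here.

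Fibroblasts and stellate cells carry VIM, ACTA2 and FAP as well. Of 25 fibroblast and stellate cell genes 4 were listed, the 3 members and BGN, and BGN, the matrix proteoglycan biglycan, moved against them. BGN had 0.90, 0.86 and 0.69 FPKM in control replicates 1, 2 and 3 and 0.45, 0.45 and 0.17 FPKM in the knockdown libraries, a fall of 1.19 ± 0.47 (SE) on the log2 scale (edgeR adjusted p = 0.00778). The 4 genes summed to 7.81 to 9.75 FPKM in the controls, against 19.7 to 21.2 FPKM after knockdown. Their median edgeR log2 fold change was 1.31. Since 3 of the 4 are members, this sum and this median mostly restate the member values, and BGN alone fell. The defining fibroblast genes COL1A1, COL3A1, DCN and PDGFRB were among the 21 not analysed here. All libraries were made from the AsPC-1 line, so this list describes genes and not fibroblasts of a tissue. Which AsPC-1 cells carried the VIM, ACTA2 and FAP reads was not tested. In bulk RNA a change in the number of AsPC-1 cells expressing a gene and a change in RNA per cell cannot be told apart.

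Of 13 endothelial markers PECAM1 was listed, at 0.38 to 0.66 FPKM in the controls, against 0.15 to 0.24 FPKM after knockdown. Of 16 acinar and endocrine markers 2 were listed and both were higher, as were 73.7% of all listed genes. The elastase gene CELA3A had 0.26 to 0.34 FPKM in the controls, against 3.15 to 4.34 FPKM after knockdown, and the glucagon gene GCG had no reads in the controls, against 24 reads in all after knockdown, too few to be tested. None of 15 immune markers was analysed here.

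The families of the members were listed only sparsely. ACTA2 was the 1 listed gene of 6 actins and of 20 contractile genes of smooth muscle, a list that holds TAGLN, CNN1 and MYH11. Of 10 filament genes of the vimentin and neurofilament classes VIM and PRPH were listed. PRPH, the neuronal filament peripherin, had 0.57, 0.51 and 0.68 FPKM in control replicates 1, 2 and 3 and 1.21, 1.23 and 1.41 FPKM in the knockdown libraries, and it passed as higher with the recovered depth but turned to the lower side under TMM (-0.07) and DESeq2 size factors (-0.03). Of 16 keratins 2 were listed and both fell, as did 25.8% of all genes tested. KRT13 had 7.49 ± 0.740 FPKM in the controls, against 3.21 ± 0.343 FPKM after knockdown, and KRT6B 0.29 ± 0.0889 and 0.103 ± 0.0252 FPKM (SD, n = 3 per group). FAP was the 1 listed gene of 9 in its peptidase family and TGM2 the 1 of 9 transglutaminases. None of 11 surface partners of transglutaminase 2, fibronectin and integrins among them, was analysed here.

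**Figure D5:**
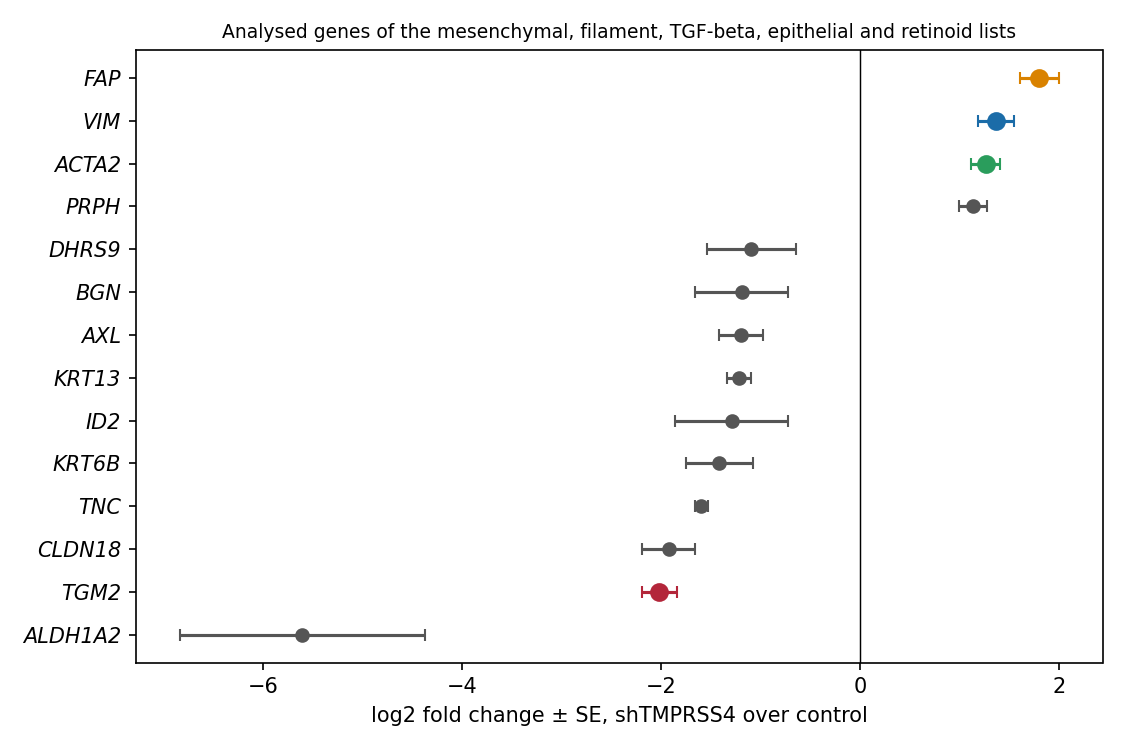
Log2 fold change ± SE, knockdown over control (horizontal axis), of the genes analysed from the mesenchymal, fibroblast, filament, keratin, TGF-beta, epithelial and retinoid lists, with the 4 members in colour. VIM, ACTA2, FAP and PRPH lie on the higher side and the other 10 genes, TGM2 among them, on the lower side.

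Signals known to act on these genes had few listed members on the lists used, which do not hold every gene of a pathway. BMP7 and SMAD9, of the wider TGF-beta family, lay outside them and were higher (edgeR log2 fold changes of 1.76 and 1.59). Of 29 genes of the TGF-beta pathway, which drives ACTA2 in fibroblasts, ID2 was listed and did not pass (edgeR adjusted p = 0.0580). ID2 had 42.9, 46.6 and 13.8 FPKM in control replicates 1, 2 and 3 and 14.7, 13.5 and 14.2 FPKM in the knockdown libraries, so control replicate 3 lay with the knockdown libraries. Without that library ID2 passed as lower (-1.66), and it also passed under TMM, DESeq2, limma and upper-quartile scaling. Of 23 retinoid genes 2 were listed and both were lower, as were 26.3% of all listed genes, and nothing is read about the pathway from 2 genes. The retinol dehydrogenase gene RDH5, outside this list, was higher (edgeR log2 fold change 1.09). ALDH1A2, which makes retinoic acid, had 1.17, 0.98 and 0.43 FPKM in control replicates 1, 2 and 3, from 233 reads in all, and 0, 0.05 and 0 FPKM in the knockdown libraries, from 5 reads in all (edgeR adjusted p = 0.000102). DHRS9, a retinol dehydrogenase, had 2.17, 1.49 and 3.29 FPKM in the controls, against 1.53, 0.96 and 0.74 FPKM after knockdown, which overlapped, and it passed as lower (edgeR adjusted p = 0.0112). Of 30 genes of epithelial junctions and identity the claudin CLDN18 was listed, and it fell from 0.143 ± 0.0416 to 0.0367 ± 0.00577 FPKM. The remaining 29 genes, CDH1 and EPCAM among them, were not analysed here.

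In the deposited annotation, 2 or more members met in 12 terms that their choice did not use. All 4 were annotated to cytoplasm, a term with 240 listed genes of which 78.8% were higher. VIM, FAP and TGM2 were annotated to focal adhesion, a term with 18 listed genes of which 11 were higher and 7 lower. ACTA2 and FAP shared lamellipodium, with 9 listed genes, 8 higher and 1 lower. VIM and ACTA2 shared cytoskeleton, with 52 listed genes of which 80.8% were higher. VIM, ACTA2 and TGM2 shared extracellular exosome, with 61 of 90 listed genes higher. VIM and TGM2 shared protein domain specific binding, with 1 of 4 listed genes higher. The share of higher genes was 58.5% for extracellular space and 86.3% for cell projection, and between these for the other 4 terms. Among all listed genes 73.7% were higher.

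Reads of the members may be shared with genes on the opposite strand, since no strand-marking step is described. Of the 31-base words in the annotated VIM transcripts 23.2% occur in transcripts of other genes, 22.8% on the opposite strand, chiefly in VIM-AS1 and AL133415.1. For ACTA2 the share was 31.5%, and the opposite-strand partners with most words were ACTA2-AS1 (14.5%) and FAS (11.8%), the death receptor gene whose exons overlap those of ACTA2. For FAP (7.76%, all in AC007750.1) and TGM2 (6.46%, mostly RPRD1B) the shares were smaller. None of these partners was analysed here. Shared words with paralogs on the same strand were few. ACTA2 shared 10 words with ACTC1 and 2 with ACTB and none with ACTA1, ACTG1 or ACTG2, VIM shared 2 with DES, and FAP and TGM2 shared none with their families.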

How the data were processed

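RNA of 6 AsPC-1 libraries (3 control, 3 shTMPRSS4) was enriched for polyadenylated RNA and sequenced, per the labels' protocols. The submitters' processing notes list Bowtie 0.12.2, with mm8 and mm9 (both mouse) as builds, while the table carries human Ensembl identifiers, so the reference used is uncertain. What counted the reads, with which annotation, and which test the authors ran is unknown here. Per the file headers, the deposited table gives a read count and an FPKM value per gene and library, and the authors' log2 fold change, p-value and FDR.

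Relative depth was the median ratio of count to FPKM over 159 genes with at least 200 counts in every library, and absolute depth came from 12 of them with 1 transcript in GENCODE release 29. The edgeR 4.0.16 quasi-likelihood test (R 4.3.3) was fitted to the deposited counts with this depth, robust estimation and the default filter, which left 705 of 753 genes, with Benjamini-Hochberg adjustment over these and a threshold of 0.05. It was tested on simulated data. Fold changes are edgeR's, and SE come from log2 depth-scaled counts plus 0.5. Pair ratios used counts plus 0.5. Named genes were the 4 members, the listed genes of 16 gene lists, the 3 nearest patterns per member, and paralogs. LGALS1, VCAN, COL4A2, TIMP2, COL4A1, BMP7, SMAD9 and RDH5 were added by no set rule, as examples outside the lists. The members and lists were chosen with earlier results of these data known. Alternatives were other scalings, no filter, DESeq2 1.42.0, limma 3.58.1 on log2(FPKM + 0.1 or 1), left-out libraries and a replicate block. The labels do not say that replicates were separate cultures, so p-values measure only the spread between these samples.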

Additional observations from a re-analysis of the deposited data

How the results depend on the processing

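The fold changes of FAP and TGM2 kept their direction and passed under all 14 alternatives tried, and those of VIM and ACTA2 under 12. The exceptions were scalings over the selected rows. TMM gave log2 fold changes of 0.16 for VIM and 0.054 for ACTA2 and left 357 genes past the threshold (167 higher, 190 lower), against 699 (517 higher, 182 lower). DESeq2 size factors gave 0.20 and 0.089 and left 367 genes (180 higher, 187 lower). By construction these scalings centre the listed genes, which enlarges the fall of TGM2 and shrinks the rises of VIM, ACTA2 and FAP by a like amount. FAP passed narrowly under them (edgeR adjusted p = 0.0464 with TMM and 0.0318 with DESeq2 size factors). Upper-quartile scaling left 599 genes, 68.8% of them higher. Without 1 library the log2 fold changes ran from 1.23 to 1.49 for VIM, 1.18 to 1.37 for ACTA2, 1.65 to 1.91 for FAP and -2.20 to -1.93 for TGM2, and the number of genes passing from 697 to 708. Leaving out control replicate 3 also leaves the L4 libraries alone. There the log2 difference of ACTA2 over VIM turned to 0.016 (exact permutation adjusted p = 1), and its left-out values ran from -0.27 to 0.016. The cause was not tested. With log2(FPKM + 1) the FAP value was 0.89, since a pseudocount shrinks low genes. The same-numbered libraries did not deviate together (r of -0.0662, -0.0604 and -0.0197 over 705 genes), and differently numbered pairs ran from -0.0291 to 0.084. These values cannot show whether same-numbered libraries were prepared together, which the labels do not say. With a replicate block 682 genes passed, and for the pair ratios the blocked test cannot go below an exact p of 0.25. Depth limits FAP most in the controls, where counting reads alone gives a coefficient of variation of 15.6%, and TGM2 most after knockdown, where it gives 8.38%.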
